A study of Mus musculus with 36 samples.

Results

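The expression of 10 named genes of the antimicrobial response was followed in mouse intestinal organoids, 5 Paneth granule genes, which are Lyz1, Mmp7, Ang4, Itln1 and Defa24, and 5 Reg genes, which are Reg1, Reg3a, Reg3b, Reg3g and Reg4. All 10 were found by symbol and Ensembl identifier among the 52636 genes listed for each library, by a rule that names them and sets no cutoff on their expression. RNA came from organoids of jejunal crypts of C57BL/6 mice, in 36 libraries with 6 per condition. The organoids were kept for 2 days in 1 of 6 conditions, and every culture received an antibody, either anti-Ptk7 or the control IgG. With IgG the conditions were Wnt5a, complete media (IntestiCult), senescent conditioned medium (SCM) and quiescent conditioned medium (QCM), and with anti-Ptk7 they were Wnt5a and SCM. Conditioned media had been collected from mouse embryonic fibroblasts that were either senescent or made quiescent by serum deprivation, so both carry factors of cultured fibroblasts and not of the intestine. Both media were concentrated and then mixed with IntestiCult, and Wnt5a was given in complete media. Crypts came from 6 mice, and the labels number the libraries of each condition 1 to 6 without naming the mouse. The numbers were therefore not used as pairs in the main fit, and counts of libraries by the same number are descriptions only.

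Paneth cells sit at the base of small intestinal crypts, between the stem cells, and secrete granules of antimicrobial proteins while also supplying niche signals. Lyz1 encodes lysozyme, which cuts bacterial cell walls. Defa24 encodes an alpha-defensin, a small pore-forming peptide that is made as an inactive precursor, and Mmp7 encodes matrilysin, the protease that activates alpha-defensins in the mouse. Ang4 encodes an antimicrobial ribonuclease of the angiogenin family and Itln1 encodes intelectin, a lectin that binds microbial sugars and is also made by goblet cells. The Reg genes encode secreted C-type lectin proteins. Reg3b and Reg3g are bactericidal proteins of the gut epithelium that are induced through IL-22 and STAT3, Reg4 is known as a marker of deep crypt secretory cells of the colon and of enteroendocrine cells, and Reg1 and Reg3a are known from the injured pancreas and the inflamed gut.

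Differences between conditions are given as log2 fold changes of an edgeR quasi-likelihood fit with TMM scaling, and a gene was called at a Benjamini-Hochberg adjusted p under 0.05 over 15497 tested genes together with a fold change over 1.5. Levels are CPM, which are counts divided by the TMM-scaled library total and put on a common scale. Libraries held between 9581589 and 21029769 counts (median 13490071), and the 10 genes took between 0.164% and 0.532% of them. The lowest shares were those of the libraries numbered 1 of Wnt5a + anti-Ptk7 and of Wnt5a + IgG, which also had the smallest share of counts on genes with a coding length under 600 bases in their conditions (10.4% and 10.5%, against medians of 11.7% and 11.9%). In 5 of 54 sets of a detected member in a condition, 1 library stood apart from the others by Dixon's test, and it was numbered 1 each time. Results that change without the libraries numbered 1 are given beside them. In bulk RNA, fewer cells of a type and less RNA per cell cannot be told apart, and this holds for all values below.

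The promoters of Ang4, Mmp7, Reg4, Lyz1 and Reg3b are printed first, because these are the 5 members called in at least 1 comparison. Each run is the 250 bases before the RefSeq transcription start (GRCm38.p6), read 5′ to 3′ on the strand of the gene. Capitals mark matches, on either strand, to CTTTGA (TCF/LEF), TTCNNNGAA (STAT) or GGAATG (TEAD). The windows are chr10:117292869-117293118 on the minus strand for Lyz1, chr14:51773591-51773840 on the minus strand for Ang4, chr9:7691840-7692089 on the plus strand for Mmp7, chr3:98221906-98222155 on the plus strand for Reg4 and chr6:78370635-78370884 on the plus strand for Reg3b. For Reg3b the RefSeq start lies downstream of the start of the gene in GENCODE.
Lyz1: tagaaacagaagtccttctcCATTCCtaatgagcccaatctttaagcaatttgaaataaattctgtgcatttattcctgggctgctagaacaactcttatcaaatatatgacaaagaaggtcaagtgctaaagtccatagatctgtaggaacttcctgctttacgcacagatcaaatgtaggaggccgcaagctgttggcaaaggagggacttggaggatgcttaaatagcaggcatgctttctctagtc
Ang4: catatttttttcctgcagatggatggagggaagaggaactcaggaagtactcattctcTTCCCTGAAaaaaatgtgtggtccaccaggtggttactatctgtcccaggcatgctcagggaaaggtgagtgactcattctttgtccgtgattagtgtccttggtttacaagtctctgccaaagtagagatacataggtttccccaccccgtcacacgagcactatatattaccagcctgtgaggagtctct
Mmp7: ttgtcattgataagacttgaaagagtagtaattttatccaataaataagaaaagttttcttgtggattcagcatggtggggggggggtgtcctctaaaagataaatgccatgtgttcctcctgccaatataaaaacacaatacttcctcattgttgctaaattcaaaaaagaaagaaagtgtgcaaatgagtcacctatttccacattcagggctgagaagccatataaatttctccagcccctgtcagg
Reg4: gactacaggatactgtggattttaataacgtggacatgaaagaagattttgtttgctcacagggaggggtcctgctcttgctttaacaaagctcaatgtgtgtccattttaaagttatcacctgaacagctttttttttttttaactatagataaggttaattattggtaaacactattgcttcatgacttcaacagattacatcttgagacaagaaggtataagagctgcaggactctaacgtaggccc
Reg3b: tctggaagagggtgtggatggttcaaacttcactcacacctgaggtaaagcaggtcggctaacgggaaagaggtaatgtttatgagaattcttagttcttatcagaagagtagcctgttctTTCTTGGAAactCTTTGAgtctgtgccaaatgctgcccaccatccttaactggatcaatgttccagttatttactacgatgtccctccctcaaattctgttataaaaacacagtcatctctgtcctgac
The Ang4 window held a STAT match 192 bases before the start and the Lyz1 window a TEAD match 230 bases before it, on the opposite strand. The Reg3b window held a STAT match at 129 bases and a TCF/LEF match at 117 bases before the start, and the windows of Mmp7 and Reg4 held no match to any of the 3 motifs. Of 32851 promoters with a window of this length, 13.8% held the TCF/LEF letters, 7.02% the STAT letters and 12.6% the TEAD letters. RefSeq promoters were found for 9 of the 10 members, with none for Defa24. A TCF/LEF match also stood in the windows of Reg3a and Reg3g, and none of the 3 motifs in those of Itln1 or Reg1. A match of letters is a description of the sequence and not a measured site.

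Levels differed widely among the members when set per kilobase of exon, as means over the 36 libraries. Defa24 had 2115 CPM per kb and Itln1 1952 CPM per kb, followed by Lyz1 with 388 CPM per kb. Ang4 had 133, Reg4 103 and Mmp7 40.2 CPM per kb. Reg3g had 7.32 CPM per kb, Reg3b 4.34 and Reg3a 1.25. The authors report counting reads in coding sequences, for which coding length is the matching divisor, so the exon values are too low if only those were counted. Per kilobase of coding sequence Lyz1 had 1104 CPM per kb and Reg3g 29.7. The order was the same except for Reg4 (224 CPM per kb) and Ang4 (219 CPM per kb), which changed places. Of the 10 members 9 were detected, at a mean of at least 0.5 CPM, and the same 9 passed the expression filter. Reg1, at a mean of 0.324 CPM with no counts in 6 libraries and at most 1.48 CPM in any, is reported as not detected and was not tested. Genes close to the members in sequence could share reads with them, so each member's longest transcript was searched for 50-base windows that also occur in transcripts of other genes. Mmp7 shared 7.36% of its windows with AV064505, an antisense gene that overlaps it (chr9:7669429-7695631, minus strand), and the other 9 shared none. Whether counting used the strand is not stated, so reads of Mmp7 and AV064505 cannot be told apart where the genes overlap. AV064505 held a mean of 4.79 CPM, against 43.0 CPM for Mmp7. Which regions were counted for AV064505, annotated as antisense and not as protein-coding, is not stated.

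Set against all genes, the members were called at the following rates. In QCM against complete media 1 of the 9 tested members was called, Ang4, which was higher, against 0.374% of all tested genes called in either direction and 0.355% called higher. In SCM against complete media 3 were called higher (Mmp7, Ang4 and Reg4), against 4.96% of all genes called higher and 6.08% called in either direction. In Wnt5a 3 were called higher (Mmp7, Ang4 and Reg3b), against 8.29% called higher and 10.2% in either direction. The comparisons with complete media share its 6 libraries. Mmp7 alone was called between SCM and QCM, higher in SCM, against 0.761% of all genes called higher and 0.903% in either direction. With anti-Ptk7, no member was called in SCM, where 1.23% of all genes were, and 2 were called lower in Wnt5a (Lyz1 and Reg3b), where 0.432% of all genes were called lower and 0.884% in either direction. The difference between the antibody effects in the 2 media was called for no member and for 0% of all genes by edgeR, with 602 genes at an unadjusted p under 0.05.

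**Figure D1:**
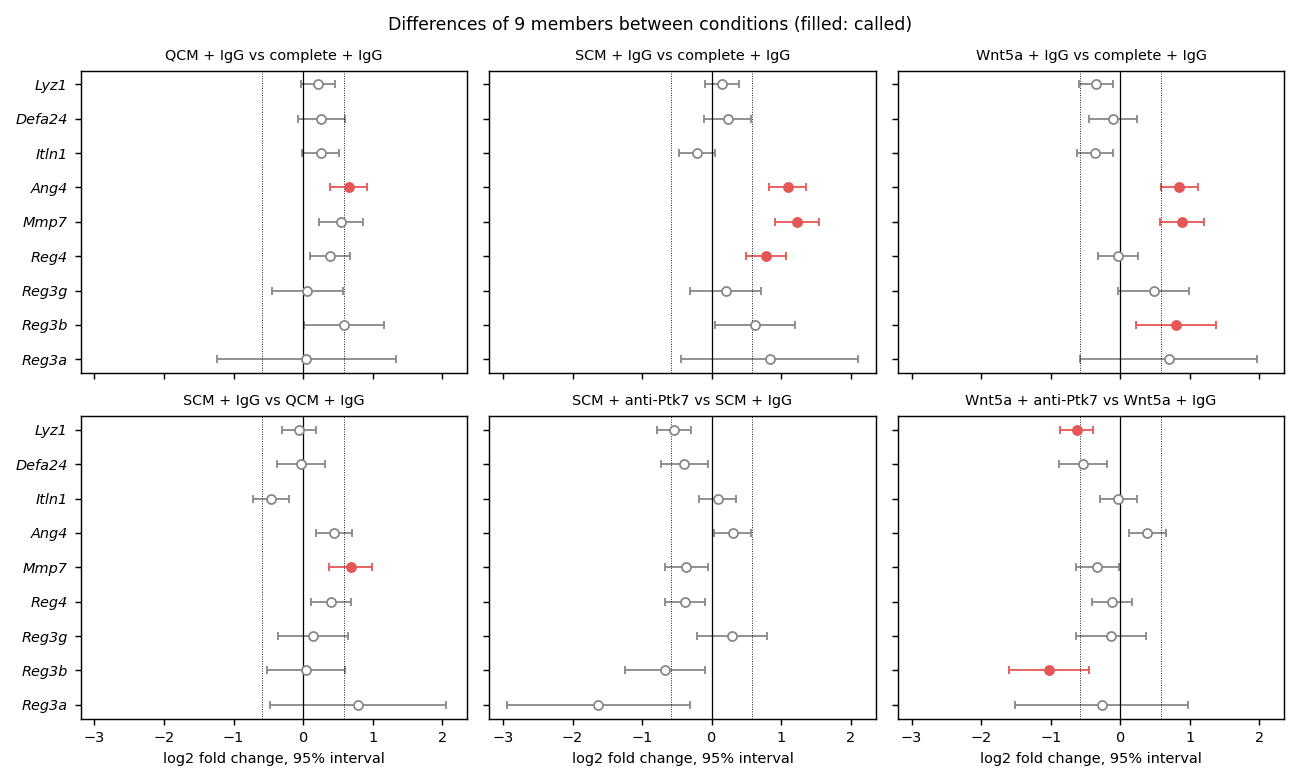
Log2 fold change with its 95% interval (x axis) of the 9 tested members (y axis) in the 6 comparisons, 1 panel each, with filled red points for calls, open points otherwise and dotted lines at a fold change of 1.5. Mmp7 at 1.23 and Ang4 at 1.09 in SCM against complete media stand farthest from 0 among the calls upward, and Reg3b at −1.02 in Wnt5a with anti-Ptk7 among those downward.

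**Figure D2:**
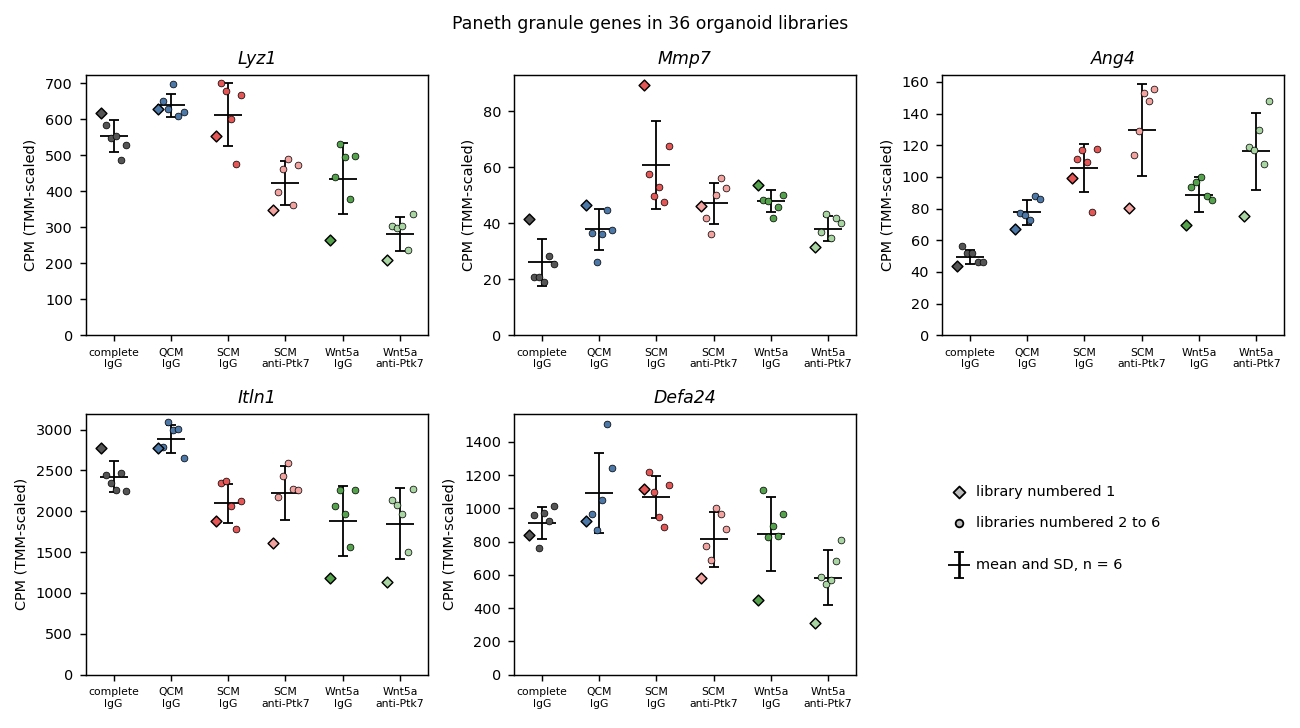
CPM of the 5 Paneth granule genes (y axis, linear from 0) in the 6 conditions (x axis), with 1 point per library, diamonds for libraries numbered 1, and the mean with SD over 6 libraries. Ang4 in complete media lies between 43.9 and 56.3 CPM, below all libraries of the other 5 conditions, whereas Lyz1 is lowest in Wnt5a + anti-Ptk7, between 209 and 337 CPM.

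Ang4, the antimicrobial ribonuclease (chr14:51763878-51773590, minus strand, 2 exons), was lowest in complete media and higher in every other condition. In complete media + IgG it ranged from 43.9 to 56.3 CPM with a median of 49.1. It ranged from 66.8 to 87.6 CPM (median 76.5) in QCM + IgG and from 77.7 to 117 CPM (median 111) in SCM + IgG. In Wnt5a + IgG it ranged from 69.5 to 99.7 CPM (median 90.8). None of these ranges overlapped that of complete media. The log2 fold change against complete media was 0.65 ± 0.14 (SE) in QCM (edgeR quasi-likelihood adjusted p = 0.00985), 1.09 ± 0.14 in SCM (9.59e-07) and 0.85 ± 0.14 in Wnt5a (2.69e-05). Each of the 3 calls remained with any single library left out. The call in QCM was lost with voom and quantile normalization, at an adjusted p of 0.0643. At a fold change over 2 or with glmTreat for a fold change over 1.5, the calls in QCM and Wnt5a were lost. The glmTreat adjusted p in Wnt5a was 0.176, and the call in SCM remained. Between SCM and QCM, Ang4 differed by 0.44 ± 0.13 with an adjusted p of 0.0741.

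With anti-Ptk7, Ang4 ranged from 80.5 to 156 CPM (median 138) in SCM and from 75.2 to 148 CPM (median 118) in Wnt5a. It was above the IgG library of the same number in 5 of 6 cases in SCM and in 6 of 6 in Wnt5a. The differences of 0.30 ± 0.13 (adjusted p = 0.238) and 0.39 ± 0.13 (adjusted p = 0.116) on the log2 scale did not pass the test, and the ranges with and without anti-Ptk7 overlapped in both media.

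Mmp7, the protease that activates alpha-defensins (chr9:7692090-7699585, plus strand, 6 exons), was also higher in SCM and Wnt5a than in complete media. It ranged from 19.03 to 41.4 CPM (median 23.2) in complete media + IgG and from 47.6 to 89.5 CPM (median 55.2) in SCM + IgG. In Wnt5a + IgG it ranged from 41.7 to 53.6 CPM with a median of 48.2. Neither range overlapped that of complete media, in which the highest value was that of library 1. The log2 fold change was 1.23 ± 0.16 in SCM (adjusted p = 2.33e-06) and 0.89 ± 0.16 in Wnt5a (0.000128), and both calls remained with any single library left out. The call in Wnt5a was lost at a fold change over 2 or with glmTreat (adjusted p = 0.191), and that in SCM remained.

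In QCM + IgG, Mmp7 ranged from 26.002 to 46.6 CPM (median 37.1) and differed from complete media by 0.55 ± 0.16 (adjusted p = 0.117). Without library 1 of complete media the difference was 0.71 with an adjusted p of 0.0133, and without all libraries numbered 1, an alternative chosen after seeing the data, it was 0.67 with an adjusted p of 0.0077, so that it was then called. Mmp7 was the only member called between SCM and QCM (0.68 ± 0.16, adjusted p = 0.022, ranges not overlapping). This call was lost without library 1 of SCM + IgG (0.55, adjusted p = 0.0879) and without library 2, 3 or 4 of QCM + IgG (adjusted p = 0.0557, 0.089 and 0.052). It was also lost at a fold change over 2 or with glmTreat. With anti-Ptk7, Mmp7 had 47.2 ± 7.36 CPM in SCM and 38.1 ± 4.44 CPM in Wnt5a (SD, n = 6), and the differences from IgG of −0.37 ± 0.16 and −0.33 ± 0.16 did not pass the test (adjusted p = 0.214 and 0.312).

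Lyz1, which encodes lysozyme (chr10:117287797-117292868, minus strand, 4 exons), had no call against complete media and was lower with anti-Ptk7. It ranged from 485 to 616 CPM (median 550) in complete media + IgG, from 609 to 698 CPM (median 628) in QCM + IgG and from 476 to 699 CPM (median 634) in SCM + IgG. In Wnt5a + IgG it ranged from 265 to 531 CPM with a median of 467. The difference between Wnt5a and complete media, −0.35 ± 0.12, had an adjusted p of 0.0403 and lay below the fold cutoff. In 6 of 6 cases the Wnt5a + IgG library was below the complete media + IgG library of the same number.

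With anti-Ptk7, Lyz1 ranged from 347 to 490 CPM (median 429) in SCM and from 209 to 337 CPM (median 300) in Wnt5a. It was below the IgG library of the same number in 6 of 6 cases in each medium, although the ranges overlapped. The log2 fold change was −0.63 ± 0.12 in Wnt5a (adjusted p = 0.00374, called) and −0.54 ± 0.12 in SCM (adjusted p = 0.0133, below the fold cutoff). The difference between these effects was −0.09 ± 0.17 (95% interval −0.43 to 0.25, adjusted p = 0.999). Since the fold change stood close to the cutoff of 1.5, single libraries decided its call. In Wnt5a the call was lost without library 3 or 6 of Wnt5a + IgG or library 1 or 5 of Wnt5a + anti-Ptk7 (−0.57, −0.58, −0.56 and −0.58, adjusted p between 0.0103 and 0.0169), and in SCM it was gained without library 5 of SCM + IgG (−0.60) or library 4 of SCM + anti-Ptk7 (−0.59). With only the Wnt5a groups in the fit, the adjusted p was 0.0697.

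Of the 9 tested members 7 have coding sequences under 600 bases, from 279 bases in Defa24 to 525 in Reg3a and Reg3b, with 432 in Ang4, 444 in Lyz1, 471 in Reg4 and 522 in Reg3g, so short genes were followed as a class. Among 1453 other tested genes with coding sequences under 600 bases the median log2 fold change against complete media was 0.17 in QCM, 0.13 in SCM and −0.05 in Wnt5a, against −0.0004, −0.01 and 0.01 among 10992 longer genes. The short genes called higher numbered 13 in QCM (0.895%, against 0.328% of longer genes), 135 in SCM (9.29% against 5.09%) and 136 in Wnt5a (9.36% against 9.23%). Those called lower numbered 0 in QCM (0% against 0.0273%), 7 in SCM (0.482% against 1.24%) and 38 in Wnt5a (2.62% against 1.84%). With anti-Ptk7 the median of short genes was −0.11 in SCM and −0.03 in Wnt5a, against 0.02 and 0.01 among longer genes. Here 23 short genes were called lower in SCM (1.58% against 0.6% of longer genes) and 18 in Wnt5a (1.24% against 0.364%), while 5 (0.344% against 0.637%) and 9 (0.619% against 0.464%) were called higher. The part of gene length in the differences of these 7 members was not tested.

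Defa24, the alpha-defensin gene (chr8:21734494-21735471, plus strand, 2 exons), had no call. It ranged from 759 to 1015 CPM (median 943) in complete media + IgG, from 870 to 1508 CPM (median 1007) in QCM + IgG and from 889 to 1219 CPM (median 1107) in SCM + IgG. In Wnt5a it ranged from 448 to 1108 CPM (median 863) with IgG and from 307 to 809 CPM (median 577) with anti-Ptk7. Library 1 was the lowest in both Wnt5a groups. The difference with anti-Ptk7 in Wnt5a was −0.54 ± 0.17 (adjusted p = 0.0944), lower in 6 of 6 libraries by number. It was called without library 1 of Wnt5a + IgG (−0.67, adjusted p = 0.0177) or without library 6 of Wnt5a + anti-Ptk7 (−0.66, adjusted p = 0.0374). In SCM, Defa24 had 1068 ± 124 CPM with IgG and 815 ± 166 CPM with anti-Ptk7 (SD, n = 6), a difference of −0.39 ± 0.17 that did not pass the test (adjusted p = 0.236).

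Itln1, the lectin gene (chr1:171518122-171535294, minus strand, 8 exons), held the most counts of the 10 members and was the highest in QCM. It ranged from 2656 to 3096 CPM (median 2892) in QCM + IgG, from 2251 to 2778 CPM (median 2393) in complete media + IgG and from 1788 to 2367 CPM (median 2096) in SCM + IgG. The ranges of QCM and SCM did not overlap, but the difference of −0.46 ± 0.13 did not pass the test (adjusted p = 0.0612). In Wnt5a + IgG it ranged from 1185 to 2266 CPM (median 2019), and the difference from complete media of −0.36 ± 0.13 (adjusted p = 0.0474) lay below the fold cutoff. It was called with voom on quantile-normalized values (−0.60, adjusted p = 0.00274). With anti-Ptk7 it had 2224 ± 332 CPM in SCM and 1848 ± 437 CPM in Wnt5a (SD, n = 6), which differed from IgG by 0.09 ± 0.13 (95% interval −0.18 to 0.35) and −0.03 ± 0.13 (95% interval −0.29 to 0.23).

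Within a library, the counts of Ang4 and Lyz1 can be set against each other without any scaling. Complete media + IgG held between 7.13 and 9.66 Ang4 counts per 100 Lyz1 counts (median 9.44), QCM + IgG between 10.5 and 14.4 (median 11.98) and SCM + IgG between 15.95 and 18.3 (median 17.4). Wnt5a + IgG held between 17.1 and 26.2 (median 20.7). With anti-Ptk7 the ratio lay between 23.2 and 40.7 (median 29.9) in SCM and between 35.99 and 45.8 (median 41.1) in Wnt5a, and neither range overlapped that of IgG in the same medium. For comparison, Defa24 counts per 100 Lyz1 counts had medians between 149 and 191 in the 6 conditions, with overlapping ranges. Mmp7 counts per 100 Lyz1 counts had medians of 4.32 in complete media, 5.85 in QCM, 9.41 in SCM and 10.5 in Wnt5a, with IgG. With anti-Ptk7 the Mmp7 medians were 10.8 in SCM and 13.4 in Wnt5a, and the ranges overlapped those of IgG. A ratio to Lyz1 above that of complete media was thus not particular to Ang4. The ratios were formed after the values of these genes were known and were not tested.

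**Figure D3:**
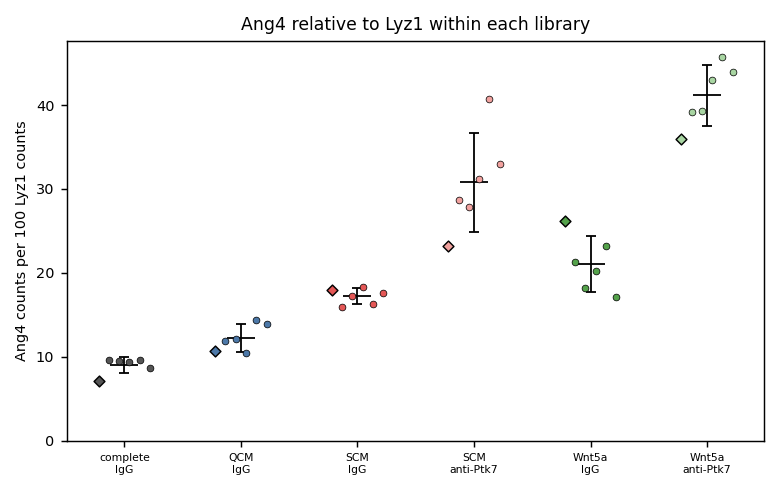
Ang4 counts per 100 Lyz1 counts (y axis, linear from 0) within each library of the 6 conditions (x axis), with diamonds for libraries numbered 1 and the mean with SD over 6 libraries. The 6 libraries of complete media + IgG lie between 7.13 and 9.66 and those of Wnt5a + anti-Ptk7 between 35.99 and 45.8.

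Reg4, a marker of secretory cells (chr3:98222156-98236748, plus strand, 6 exons), was the most abundant Reg gene and was higher in SCM. It ranged from 81.0 to 100.1 CPM (median 84.3) in complete media + IgG, from 91.7 to 127 CPM (median 117) in QCM + IgG and from 127 to 174 CPM (median 150.2) in SCM + IgG. The SCM range did not overlap that of complete media. The log2 fold change of 0.78 ± 0.15 was called (adjusted p = 0.000426), with any single library left out too, but not at a fold change over 2 or with glmTreat for a fold change over 1.5 (adjusted p = 0.659). The differences of QCM against complete media (0.38 ± 0.15, adjusted p = 0.249) and of SCM against QCM (0.40 ± 0.15, adjusted p = 0.146) did not pass the test. In Wnt5a + IgG, Reg4 had 86.0 ± 17.4 CPM (SD, n = 6), a difference from complete media of −0.03 ± 0.15 (95% interval −0.32 to 0.26). With anti-Ptk7 in SCM it ranged from 74.0 to 153 CPM (median 118) and was lower than with IgG in 6 of 6 libraries by number, a difference of −0.39 ± 0.15 that did not pass the test (adjusted p = 0.151). In Wnt5a + anti-Ptk7 it ranged from 46.4 to 93.6 CPM (median 82.6), a difference from IgG of −0.11 ± 0.15 (adjusted p = 0.796).

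**Figure D4:**
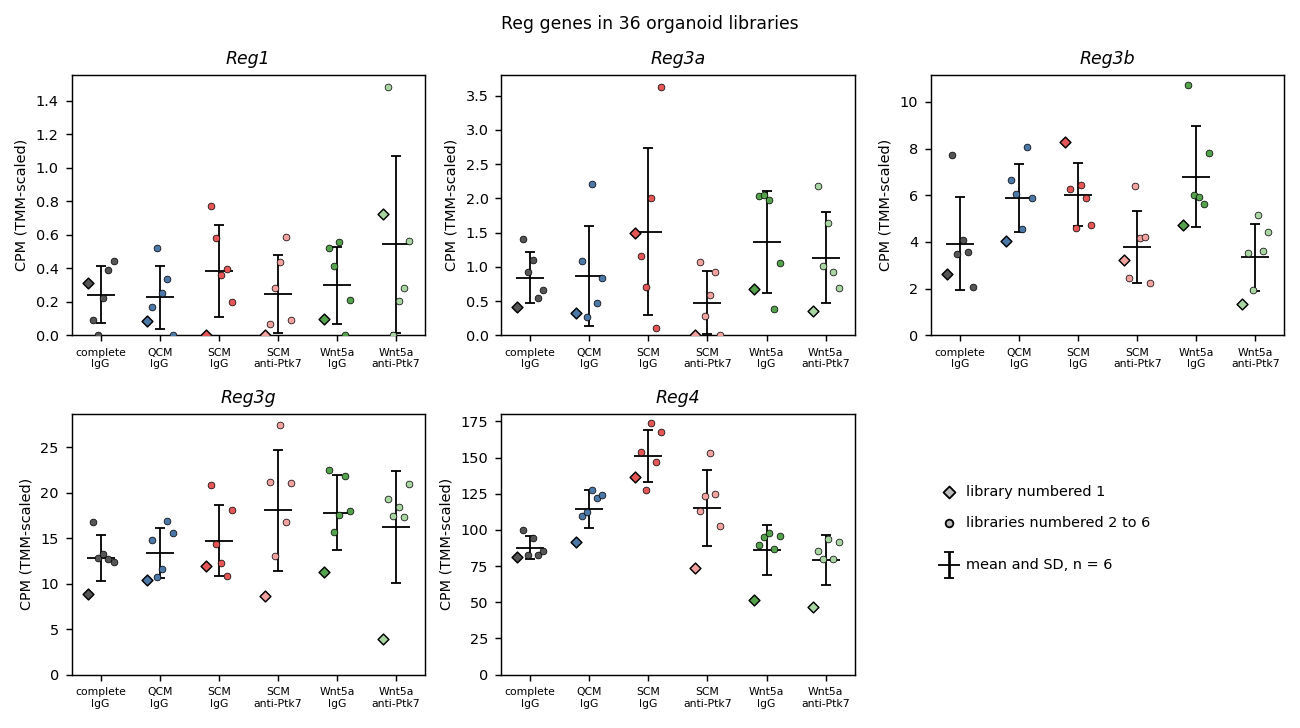
CPM of the 5 Reg genes (y axis, linear from 0, with a separate scale for each gene) in the 6 conditions (x axis), with 1 point per library, diamonds for libraries numbered 1, and the mean with SD over 6 libraries. Reg4 in SCM + IgG lies between 127 and 174 CPM, above the range of complete media + IgG, and Reg1 does not exceed 1.48 CPM in any library.

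Reg3a, Reg3b, Reg1 and Reg3g lie in a cluster on chromosome 6, between chr6:78370657 and chr6:78468872 in GENCODE, and were scarce in these organoids. Reg3b ranged from 2.07 to 7.71 CPM (median 3.54) in complete media + IgG and from 4.72 to 10.7 CPM (median 5.96) in Wnt5a + IgG. In Wnt5a + anti-Ptk7 it ranged from 1.35 to 5.14 CPM with a median of 3.56. The ranges of all 3 groups overlapped. Reg3b was higher in Wnt5a than in complete media by 0.80 ± 0.29 (adjusted p = 0.0447) and lower with anti-Ptk7 in Wnt5a by 1.02 ± 0.29 on the log2 scale (adjusted p = 0.0496), in 6 of 6 libraries by number each time.

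Both Reg3b calls stood at the edge of the threshold. The first was lost without library 1, 3, 4, 5 or 6 of complete media + IgG or library 2, 4 or 6 of Wnt5a + IgG (adjusted p between 0.0509 and 0.144). The second was lost without library 2, 3, 4, 5 or 6 of Wnt5a + IgG or library 1, 2, 3 or 5 of Wnt5a + anti-Ptk7 (adjusted p between 0.0521 and 0.143). Without all libraries numbered 1 neither was called (adjusted p = 0.0552 and 0.0833). In SCM, Reg3b had 6.03 ± 1.35 CPM with IgG and 3.78 ± 1.53 CPM with anti-Ptk7 (SD, n = 6), a difference of −0.67 ± 0.29 (adjusted p = 0.222). Against complete media, SCM differed by 0.62 ± 0.29 (adjusted p = 0.177), which was called only without library 2 of complete media + IgG (0.91, adjusted p = 0.0382).

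Reg3g, the other bactericidal lectin, had means between 12.8 CPM in complete media + IgG and 18.03 CPM in SCM + anti-Ptk7 and no call. It ranged from 8.87 to 16.7 CPM (median 12.7) in complete media + IgG and from 11.3 to 22.5 CPM (median 17.8) in Wnt5a + IgG, a difference of 0.48 ± 0.26 (adjusted p = 0.197). In Wnt5a + anti-Ptk7 library 1 held 3.88 CPM while the other 5 held 17.3 to 20.9. Reg3a, at a mean of 1.03 CPM, had no counts in 2 libraries of SCM + anti-Ptk7 and ranged up to 3.63 CPM in SCM + IgG. Its differences carried standard errors between 0.64 and 0.67 and had no call. Its coefficient of variation among the 6 libraries of a condition lay between 44.2% and 96.2%.

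When each detected member's conditions were ordered by mean log2 CPM and the neighbours compared, 2 of 45 pairs were called. Neighbours in such an order are the closest conditions by construction, so few calls could come of it. One was Ang4 in QCM above complete media. The other was Lyz1 in SCM + anti-Ptk7 above Wnt5a + anti-Ptk7 (0.59 ± 0.12, adjusted p = 0.0101, ranges not overlapping), where 1.53% of all genes were called. That Lyz1 difference lay at the fold cutoff and was not called in 14 of the 36 fits with a single library left out.

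Among other Paneth genes, few were measured well enough to test. Of 62 further granule gene names, mainly alpha-defensins, 37 were in the files and 9 passed the filter. Lyz2 and Mptx2 had mean levels of at most 0.585 and 0.298 CPM in any condition. Calls in this list numbered 1 in SCM and 3 in Wnt5a against complete media, where 6.08% and 10.2% of all genes were called. Habp2, which encodes a secreted serine protease, rose in SCM (1.37 ± 0.30, adjusted p = 0.00199) and in Wnt5a (1.54 ± 0.30, adjusted p = 0.000275). In Wnt5a, Defa26 fell from 2.22 ± 0.64 to 0.936 ± 0.340 CPM (SD, n = 6, adjusted p = 0.0324), at a low level. Mptx1, a mucosal pentraxin, also passed the cutoffs downward in Wnt5a, but it had a mean of 1.30 CPM in complete media + IgG and between 0.0513 and 0.505 CPM in the other 5 conditions, so that it passed the filter through the condition where it was high and its call is not read as a change. No granule gene of this list was called in QCM, in SCM against QCM or with anti-Ptk7. Defa17 and Defa30 had −0.29 and −0.46 in Wnt5a against complete media and did not pass the test (adjusted p = 0.33 and 0.288). The direction of the list was not tested.

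Of 20 tested lineage factors and niche ligands, 1 rose and 1 fell in Wnt5a, where 10.2% of all genes were called, and none was called elsewhere. Tgfa, a ligand of the EGF receptor, rose from 44.6 ± 6.09 to 68.8 ± 21.1 CPM (0.63 ± 0.19, adjusted p = 0.0158). Bhlha15, a transcription factor of secretory cells, fell from 21.9 ± 4.06 to 12.4 ± 2.88 CPM (−0.82 ± 0.26, adjusted p = 0.019). The other Reg family genes on the list, Reg2 and Reg3d, summed to at most 0.128 CPM in any library.

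Among 19 tested genes of the IL-22, STAT3 and NF-kB response, 5 were called higher in Wnt5a than in complete media, where 8.29% of all genes were, and none lower. The list as a whole was not tested. They were Ccl20, an epithelial chemokine (0.83 ± 0.27, adjusted p = 0.0256), Duox2 and Duoxa2, the dual oxidase and its maturation factor (1.86 ± 0.43 and 1.47 ± 0.39, adjusted p = 0.00164 and 0.00626), Bcl3 (0.96 ± 0.19, adjusted p = 0.000289) and Il22ra1, a subunit of the IL-22 receptor (0.87 ± 0.32, adjusted p = 0.0484). In SCM, where 4.96% of all genes were called higher, Bcl3 and Il10rb were (0.97 ± 0.19 and 0.61 ± 0.08, adjusted p = 0.000533 and 9.41e-07). With anti-Ptk7, Ccl20 rose in SCM from 11.7 ± 1.20 to 33.4 ± 10.5 CPM (1.51 ± 0.27, adjusted p = 0.00156) and in Wnt5a from 13.8 ± 4.72 to 27.5 ± 5.85 CPM (1.00 ± 0.27, adjusted p = 0.0323). Nfkbiz, a regulator of NF-kB targets, rose with anti-Ptk7 in SCM (0.76 ± 0.18, adjusted p = 0.0186). With anti-Ptk7, 0.581% of all genes were called higher in SCM and 0.452% in Wnt5a. Against complete media 13 of the 19 were above 0 in Wnt5a and 12 in SCM. The list summed to 1200 to 1806 CPM in complete media + IgG, 1068 to 1614 in Wnt5a + IgG and 956 to 1459 in SCM + IgG. None of these genes was called between SCM and QCM. Reg3b had the opposite sign to Ccl20 with anti-Ptk7 in both media, and the difference between the genes was not tested. Reg3g with anti-Ptk7 had 0.29 ± 0.26 in SCM and −0.14 ± 0.26 in Wnt5a (adjusted p = 0.608 and 0.871).

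Markers of other epithelial cells were followed in the same comparisons, and no list was tested as a whole. Between SCM and QCM no gene of the enterocyte, tuft, goblet, enteroendocrine or crypt base stem lists was called, where 0.903% of all genes were. The 12 enterocyte genes gave 3 calls upward in QCM (Alpi, Fabp1 and Apoa4), 5 upward in SCM (these and Apoa1 and Apob) and 4 upward in Wnt5a (Alpi, Fabp1, Apoa4 and Apob), each against complete media, with 1 downward in SCM and in Wnt5a (Anpep). Over all genes 0.355%, 4.96% and 8.29% were called higher. Against complete media 8 of the 12 were above 0 in QCM, 7 in SCM and 6 in Wnt5a, with medians of 0.09, 0.25 and 0.13. Their summed level ranged from 2854 to 3675 CPM in complete media + IgG and from 3524 to 4480 CPM in SCM + IgG. Alpi, the intestinal alkaline phosphatase, was called higher in all 3 (0.86, 1.26 and 1.02, adjusted p = 0.00443, 2.12e-06 and 2.56e-05) and lower with anti-Ptk7 in SCM and Wnt5a (−0.59 and −0.72, adjusted p = 0.0403 and 0.0104). It was the only 1 of the 12 called with anti-Ptk7, against 1.23% (SCM) and 0.884% (Wnt5a) of all genes called in either direction. Of the 12, 8 were above 0 in SCM and 5 in Wnt5a, with medians of 0.07 and −0.13. Of 6 tested tuft cell genes, Trpm5, Avil, Dclk1 and Plcg2 were called higher in Wnt5a, where 8.29% of all genes were. Ptgs1 also passed the cutoffs upward in Wnt5a and SCM, but at 0.240 CPM in complete media + IgG and 3.91 CPM in Wnt5a + IgG it passed the filter through the conditions where it was high and is not read as a change. The summed level of the tuft list was 20.2 to 38.2 CPM in complete media + IgG against 49.2 to 92.6 CPM in Wnt5a + IgG.

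Of 12 goblet genes, 2 were called higher in SCM (Ccl6 and Ccl9) and 1 in Wnt5a (Sytl2), where 4.96% and 8.29% of all genes were called higher, and the summed level ranged from 2345 to 3029 CPM in complete media + IgG and from 2077 to 3182 CPM in SCM + IgG. The 15 enteroendocrine genes gave 1 call upward in QCM (Cck) and, in both SCM and Wnt5a, 1 upward (Pyy) and 1 downward (Neurog3), against 0.374%, 6.08% and 10.2% of all genes called in either direction. Their summed level was 595 to 776 CPM in complete media + IgG, 571 to 786 CPM in SCM + IgG and 709 to 873 CPM in Wnt5a + IgG. With anti-Ptk7, Cck and Gip were called lower in SCM (−0.87 and −1.06, adjusted p = 0.00012 and 0.00368) and in Wnt5a (−0.83 in each case, adjusted p = 0.000155 and 0.0201), against 1.23% and 0.884% of all genes called. Of the 15, 3 were above 0 in SCM and 8 in Wnt5a, with medians of −0.13 and 0.11. Of 12 crypt base stem cell genes, Smoc2 was called lower in SCM and in Wnt5a, and Rnf43 and Tnfrsf19 higher in Wnt5a, or 1 and 3 of 12, against 6.08% and 10.2% of all genes. Their summed level ranged from 3740 to 4929 CPM in complete media + IgG and from 3119 to 4686 CPM in Wnt5a + IgG. No gene of the fibroblast and immune lists was called in any comparison, with 1 of 11 and 2 of 6 genes tested, and the 11 fibroblast genes together stayed between 0.146 and 7.36 CPM. The part of these cell types in the differences of the members was not tested.

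The genes most like each member over the 36 libraries, by Pearson correlation of log2 CPM, differed between members. Defa24 was most like Defa17 and Defa30, other alpha-defensins, and Dmac1 (r = 0.97, 0.93 and 0.91), with 0.96, 0.89 and 0.90 after the condition means were removed. Defa17 had −0.67 ± 0.20 with anti-Ptk7 in Wnt5a (adjusted p = 0.0594), beside −0.54 for Defa24. Ang4 was most like Lypd8, Acat1 and Fabp1 (0.91, 0.90 and 0.89), genes of absorptive cells or of fat metabolism, with 0.46, 0.66 and 0.72 without the condition means. Mmp7 was most like S100a10, Phgr1 and its antisense neighbour AV064505 (0.85, 0.84 and 0.84, or 0.71, 0.68 and 0.77 without the condition means). Lyz1 was most like Mrpl54, Rps19 and Gadd45gip1 (0.92, 0.91 and 0.91, or 0.63, 0.67 and 0.71 without the condition means). Itln1 was most like Mrpl49, Cenpv and Dhrs4 (0.93, 0.92 and 0.92, or 0.89, 0.87 and 0.88). The genes most like Lyz1 and Itln1 include genes of mitochondrial and cytosolic ribosomes rather than Paneth genes. Reg4 was most like S100g, a calcium-binding protein, Ccl9 and Ociad2 (0.83, 0.80 and 0.80, or 0.82, 0.64 and 0.68), and Reg3b like S100g, Ces2c and Cck (0.70, 0.68 and 0.66, or 0.63, 0.42 and 0.28). Reg3g was most like Cyp2c68, Ide and Olfm4 (0.70, 0.69 and 0.67, or 0.77, 0.71 and 0.71), and Reg3a like Gm16559, Iqcb1 and Trdmt1 (0.64, 0.60 and 0.59, or 0.58, 0.64 and 0.55).

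Among the members themselves, Lyz1 and Defa24 had a correlation of 0.82 and Lyz1 and Itln1 of 0.76, and Ang4 and Lyz1 of −0.26. With the condition means removed, Ang4 and Lyz1 had a correlation of 0.69, so that libraries of a condition with more Lyz1 also held more Ang4 while the conditions ranked the genes differently. Mmp7 had correlations between −0.14 and 0.24 with the other 8 members on that scale. The libraries share depth, scaling and replicate number, and these correlations are given as descriptions.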

How the data were processed

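Libraries were made with Smart-Seq V4 and Nextera XT. The authors aligned reads with HTSeqGenie and GSNAP to NCBI Build 38 (mm10) and counted those in coding sequences. They deposited whole-number counts per gene and library, without normalization. The annotation and the use of strand are not given in the sources used here. Groups came from the labels, names and positions from GENCODE vM21.

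All fits were run in edgeR 4.0.16 under R 4.3.3, with limma 3.58.1 and DESeq2 1.42.0 for alternatives. The filter filterByExpr left 15497 genes, libraries were TMM-scaled, and the quasi-likelihood test was run in a single model of 6 condition means, with p-values adjusted over all tested genes. The cutoffs for a call, 0.05 and 1.5-fold, are those of the study. The study used voom with limma on quantile-normalized values, given here as an alternative. Log2 CPM used a prior count of 2. The code was tested on simulated data. No libraries of a condition were identical, with a chi-square per gene of at least 7.28 between 90 pairs. Where the labels give no mouse, p-values measure the spread between libraries.

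The members and gene lists were chosen with earlier results of these data known. All 10 members are named, with the list genes called in a comparison and the 3 genes most like each detected member. Lyz2, Mptx2, Reg2 and Reg3d, which were not called, are named too and were chosen after their values were seen.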

Additional observations from a re-analysis of the deposited data

Results flagged for a closer look

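Of 54 sets of 6 libraries (9 detected members in 6 conditions), 5 held a library that stood apart from the other 5 by Dixon's test on log2 CPM, where chance flags about 1 in 20. All 5 were the lowest library of their set and carried the number 1. Reg3g in Wnt5a + anti-Ptk7 had 3.88 CPM in library 1 against 17.3 to 20.9 CPM in the others, a gap of 0.886 of the range. Reg4 had 51.4 CPM against 86.6 to 97.6 in Wnt5a + IgG (0.813) and 46.4 CPM against 79.6 to 93.6 in Wnt5a + anti-Ptk7 (0.770). Defa24 in Wnt5a + IgG had 448 CPM against 826 to 1108 (0.676), and Itln1 in SCM + anti-Ptk7 had 1615 CPM against 2177 to 2589 (0.633).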

How the results depend on the processing

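Over 1674 member differences recomputed under the alternatives, 1611 kept their side of the threshold, 52 lost a call, 11 gained one and none that was called changed sign. Of the 1611, 35 differed in sign with no call either way. In QCM against complete media 1 member was called, and 0 with voom on quantile-normalized values, with a fold change over 2 or with glmTreat for a fold change over 1.5. Without all libraries numbered 1, chosen after seeing the data, it was 2, and with single libraries left out 1 to 2. In SCM against complete media it was 3, with 2 at a fold change over 2 or with glmTreat (Reg4 lost) and 3 to 4 with single libraries left out. In Wnt5a against complete media it was 3, with 4 under voom on quantile-normalized values (Itln1 gained), 2 with no filter, library size alone, upper-quartile scaling, only the groups compared or without the libraries numbered 1 (Reg3b lost each time), 5 under no fold cutoff, 0 with a fold change over 2, 0 with glmTreat and 2 to 3 with single libraries left out. In SCM against QCM it was 1, with 0 at a fold change over 2, 0 with glmTreat and 0 to 1 with single libraries left out.

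With anti-Ptk7 in SCM the count was 0, with 1 under no fold cutoff and 0 to 1 with single libraries left out. With anti-Ptk7 in Wnt5a it was 2, and 1 with no filter, library size alone, upper-quartile scaling, a fold change over 2 or without the libraries numbered 1. It was 0 with only the groups compared or with glmTreat, and 0 to 3 with single libraries left out. Called list genes numbered 33, with 20 at a fold change over 2 and 10 with glmTreat. Called neighbours in the order of levels numbered 2, with 1 under voom on quantile-normalized values, DESeq2, a minimum of 10 counts in every library or only the groups compared, 0 at a fold change over 2, 0 with glmTreat and 1 to 2 with single libraries left out. The Lyz1 neighbours were not called without QCM + IgG library 4 or 6, SCM + IgG library 1 or 4, SCM + anti-Ptk7 library 3, 4 or 6, complete media + IgG library 1 or 5, Wnt5a + IgG library 1 or 3, or Wnt5a + anti-Ptk7 library 1, 3 or 5. Detected members numbered 9 under other scalings. The cause of these changes was not tested, except that a higher fold cutoff lowers counts by construction.

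Same-numbered libraries of different conditions had a mean correlation of 0.092 of their deviations from the condition means, against −0.018 for different numbers, and 16 of 36 libraries correlated best with their own number, a hint of shared numbers that the labels do not state. Since 34 of 90 same-numbered pairs, and not all, were over 0.1, the numbers were not taken as pairs. Under a replicate block the member counts were 1, 3, 3, 1, 0 and 2 in the 6 comparisons, as without it, and 42 list genes were called. Over all genes the block gave 178 calls in place of 58 in QCM against complete media, 496 in place of 140 in SCM against QCM, and 399 in place of 190 and 255 in place of 137 with anti-Ptk7 in SCM and Wnt5a, and 3 in place of 0 for the difference of the antibody effects. DESeq2 gave 264 in SCM against QCM and 295 with anti-Ptk7 in SCM, and only the groups compared gave 265 and 86. A fold change over 2 gave 24, 524, 850, 76, 91 and 57 calls over all genes, glmTreat 2, 210, 491, 4, 12 and 2, and no fold cutoff 102, 1842, 3386, 267, 422 and 398, against 58, 942, 1576, 140, 190 and 137. Without the libraries numbered 1 it was 123 in QCM against complete media and 278 in SCM against QCM. Single libraries lowered the counts to 37 in QCM against complete media (library 4 of complete media, 38 for library 3), to between 35 and 91 in SCM against QCM (libraries 2, 3 and 4 of QCM and 1, 5 and 6 of SCM), to 105 or 122 with anti-Ptk7 in SCM (library 1 of SCM + IgG, library 2 of SCM + anti-Ptk7) and to 81 in Wnt5a (library 5 of Wnt5a + anti-Ptk7). Reg1, with 162 counts in all, was too scarce to test.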
